A study of Mus musculus with 13 samples.

Results

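Narrow shared H3K27me3 regions are short stretches of the mouse genome where the mark was called both in fibroblasts with the H3.1K27M histone mutant and in fibroblasts with the H3.3K27M mutant. They were chosen by the positions of the deposited peaks. Peaks of the H3.1K27M list and of the H3.3K27M list that overlapped by at least 1 bp were joined, and a joined region was kept when it held a peak of each list and spanned less than 9000 bp. This gave 431 regions out of 1383 in all and out of 831 shared regions. The other 400 shared regions spanned 9000 bp or more and are called broad here. The overlap and the span, and with them the widths, are what the choice used, so they are given as descriptions with no test.

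The cells were mouse embryonic fibroblasts transduced with lentivirus for stable expression of histone H3.1 or H3.3 in which lysine 27 was changed to methionine. No strain, age or clone is named for them in the labels. Chromatin was cut with micrococcal nuclease and precipitated with an H3K27me3 antibody, and the 2 replicate samples of a mutant share 1 deposited list of peaks. With 1 list per mutant there was no spread between replicates, and the depth behind a list is unknown. Cells with an empty vector or with an arginine mutant were not analysed here, so each mutant was compared only with the other one.

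H3K27me3 is a repressive mark that the Polycomb complex PRC2 places on histone H3. PRC2 is first recruited to nucleation sites, in mammals mostly unmethylated CpG islands, and the mark then spreads along the neighbouring nucleosomes, helped by binding of PRC2 to the mark it has made. H3K27M binds to and inhibits PRC2, and cells that carry it lose most of the mark while keeping it at a limited set of places. The title of the series puts this in terms of spreading, so the extent of the mark around each remaining place is the quantity of interest in the short regions.

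Narrow shared regions made up a large part of the peaks of each mutant but a small part of the marked length. They held 40.9% of the H3.1K27M peaks and 36.2% of the H3.3K27M peaks. They held 21.8% of the covered length in the H3.1K27M list (1.90 Mb) and 20.9% in the H3.3K27M list (2.47 Mb). The lists had 1.77 Mb in common within these regions. In all 431 regions a single H3.1K27M peak faced a single H3.3K27M peak, and 376 of the 400 broad regions (94.0%) did so. A further peak of a list lengthens the span, so part of this difference is built in by the span limit.

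Within the limit of 9 kb the regions formed a continuous range of sizes. The median span was 6.2 kb, with quartiles of 4.6 and 7.4 kb. Only 16 regions spanned less than 3 kb, in classes of 3, 2 and 11 from the narrowest kb upward. The next classes held 51 regions from 3 to 4 kb, 75 from 4 to 5 kb, 69 from 5 to 6 kb, 86 from 6 to 7 kb, 69 from 7 to 8 kb and 65 from 8 to 9 kb. The numbers did not change at the limit: 11 regions spanned 8999 bp, the largest span allowed, and 11 spanned 9199 bp, the next step.

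Regions on either side of the limit show what the limit separated. Just inside it, chr5:126009601-126018599 (mm9, as are all positions) had an H3.1K27M peak of 8.2 kb within an H3.3K27M peak of 9.0 kb. At chr7:56212201-56221199 the widths were 4.4 and 9.0 kb, and at chr8:12426001-12434999 they were 8.2 and 8.8 kb. Of the other regions of 8999 bp, chr5:37415801-37424799 and chr7:51730001-51738999 had H3.1K27M widths of 7.2 and 7.4 kb and H3.3K27M widths of 8.0 and 8.4 kb. Just outside it, chr2:26990401-26999599 had the wider peak in H3.1K27M cells, 9.2 against 6.0 kb. Wider in H3.3K27M cells were chr2:122119401-122128599 with 7.6 and 9.2 kb, chr2:165034001-165043199 with 5.2 and 9.2 kb, chr4:153507201-153516399 with 7.2 and 9.2 kb, and chr5:30887601-30896799 with 5.8 and 9.0 kb. These are the first 5 of each span by position. Over all of them, H3.3K27M gave the wider peak in 9 of the 11 regions of 8999 bp and in 9 of the 11 of 9199 bp, and H3.1K27M in 1 and 2.

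At most of the narrow regions the mark was called over a longer stretch with the H3.3 mutant, and a minority showed the opposite. H3.1K27M peaks had a median width of 4.2 kb (lowest 0.599, quartiles 3.2 and 5.5, highest 8.8 kb). For H3.3K27M peaks it was 5.8 kb (lowest 0.599, quartiles 4.2 and 7.3, highest 9.0 kb). The ranges of widths in the mutants overlapped. Pair by pair, H3.3K27M gave the wider peak in 327 regions (75.9%, 95% exact binomial interval 71.5 to 79.8%), the H3.1K27M peak was wider in 83 (19.3%, 15.6 to 23.3%) and 21 pairs were equal. Over all 831 shared regions the shares were 77.4% and 19.9%, near those of the narrow ones. The interval covers counting error only and takes regions as independent.

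The size of the difference varied between regions. On the log2 scale, H3.3K27M width over H3.1K27M width had a median of 0.37, or 1.29-fold, with quartiles of 0.04 and 0.72 and an SD of 0.61 over regions. The median extra length of the H3.3K27M peak was 1.4 kb, from 5.6 kb shorter to 7.0 kb longer. The H3.3K27M peak was wider by 1.5 times or more in 142 narrow regions (32.9%), and the same held for 29.7% of all shared regions. The H3.1K27M peak was wider by that factor in 18 (4.18%), against 5.17% of all shared regions. A difference of at least 2-fold was seen in 66 narrow regions (15.3%) in favour of H3.3K27M, against 12.9% of all shared regions, and in 7 (1.62%) in favour of H3.1K27M, against 1.81%. Since width entered the choice of regions, nothing is read from these shares.

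**Figure D1:**
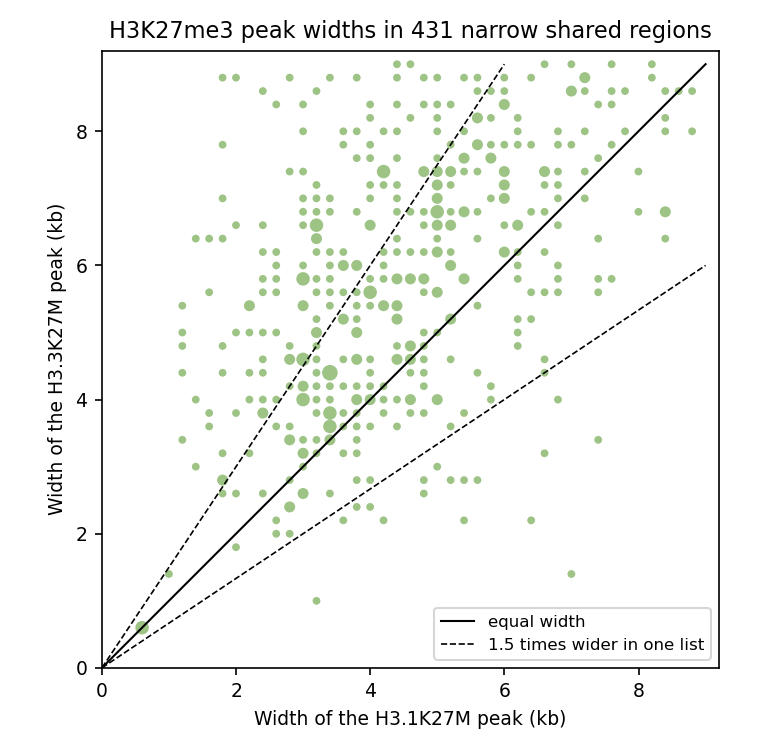
Width of the H3.1K27M peak (x axis, kb) against the width of the H3.3K27M peak (y axis, kb) in each of the 431 narrow shared regions, with larger dots where several regions coincide on the 200 bp grid. The solid line marks equal width and the dashed lines a 1.5-fold difference, and 327 regions lie above the solid line, 83 below it and 21 on it.

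The 5 regions with the highest width ratio (H3.3K27M over H3.1K27M) had an H3.1K27M peak of 2.0 kb or less. This follows from the span limit, which leaves no room for a much longer one at such ratios. At chr7:26092001-26100799 an H3.1K27M peak of 1.8 kb lay within an H3.3K27M peak of 8.8 kb, a ratio of 4.89. Nearly all of this excess lay on one side, 6.6 kb to the left and 0.4 kb to the right. At chr3:87824201-87830599 the widths were 1.4 and 6.4 kb, and at chr14:77554801-77560199 they were 1.2 and 5.4 kb. In this pair the H3.3K27M peak reached out on both sides, by 3.0 and 2.0 kb and by 1.8 and 2.4 kb. The regions chr19:10526001-10534799 (2.0 and 8.8 kb) and chr11:3658401-3666199 (1.8 and 7.8 kb) had ratios of 4.40 and 4.34, and there too the mark was longer at both edges.

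The opposite pattern had its own clear cases. At chr12:113369001-113376199 the H3.1K27M peak measured 7.0 kb and the H3.3K27M peak 1.4 kb, 5.00 times less. This H3.3K27M peak sat at the left end of the region and reached 0.2 kb beyond the H3.1K27M peak there. At chr15:85650201-85653399 the widths were 3.2 and 1.0 kb, and at chr1:134633801-134640199 they were 6.4 and 2.2 kb, with the H3.3K27M peak wholly inside in both. The regions chr5:36100401-36105799 (5.4 and 2.2 kb) and chr17:69184401-69191799 (7.4 and 3.4 kb) followed, and their H3.1K27M peaks extended mostly to the right, by 3.0 and 3.2 kb. These 5 regions have no replicate check, like every single region here.

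Grouped by the geometric mean of both widths, regions of each size had a median in favour of H3.3K27M. The median log2 ratio was 0.53 below 3 kb (39 regions) and 0.36 from 3 to 4 kb (99). It was 0.49 from 4 to 5 kb (97), 0.44 from 5 to 6 kb (81) and 0.27 above 6 kb (115). The share with the wider H3.3K27M peak ran from 59.0% in the smallest group through 71.7%, 75.3% and 84.0% to 80.0% in the largest. The span limit keeps both peaks under 9 kb, which bounds the ratio where both are long. Part of the lower median ratio above 6 kb is therefore built in. Other groupings give another picture. By span, the 16 regions below 3 kb had a median of 0.00, with 7 wider in H3.3K27M cells, 5 wider in H3.1K27M cells and 4 equal. The equal ones include the 3 regions below 1 kb, where both peaks had the smallest width, 0.599 kb, so equality was built in. By H3.1K27M width the median ratio fell from 0.94 below 3 kb to 0.04 above 6 kb, and by H3.3K27M width it rose from -0.38 below 3 kb to 0.55 above 8 kb. The limit on the span leaves little room for an H3.3K27M peak to exceed a long H3.1K27M peak, so part of the trend by H3.1K27M width is built in by the choice of regions. Each of these widths is also part of the ratio itself. Grouping by either one therefore builds in part of its trend, including the negative median at short H3.3K27M peaks.

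In the usual layout the H3.1K27M peak was nested in the H3.3K27M peak. The H3.1K27M peak lay wholly inside in 302 regions (70.1%, interval 65.5 to 74.4%), and the H3.3K27M peak lay wholly inside in 66 (15.3%, 12.0 to 19.1%). The 9 regions with the same start and end count in both. The H3.3K27M peak reached past both edges in 251 regions and past one edge, with the other equal, in 42. The H3.1K27M peak reached past both edges in 29 and past one edge in 28. The remaining 72 regions were staggered, each mutant extending further on one side. Staggered regions showed no preferred side, with H3.3K27M to the right in 35 and to the left in 37. In broad regions the H3.1K27M part lay wholly inside in 72.8%, and 16.8% were staggered, against 16.7% of the narrow ones. Overlap and span entered the choice of regions, so these shares and intervals are descriptions only.

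**Figure D2:**
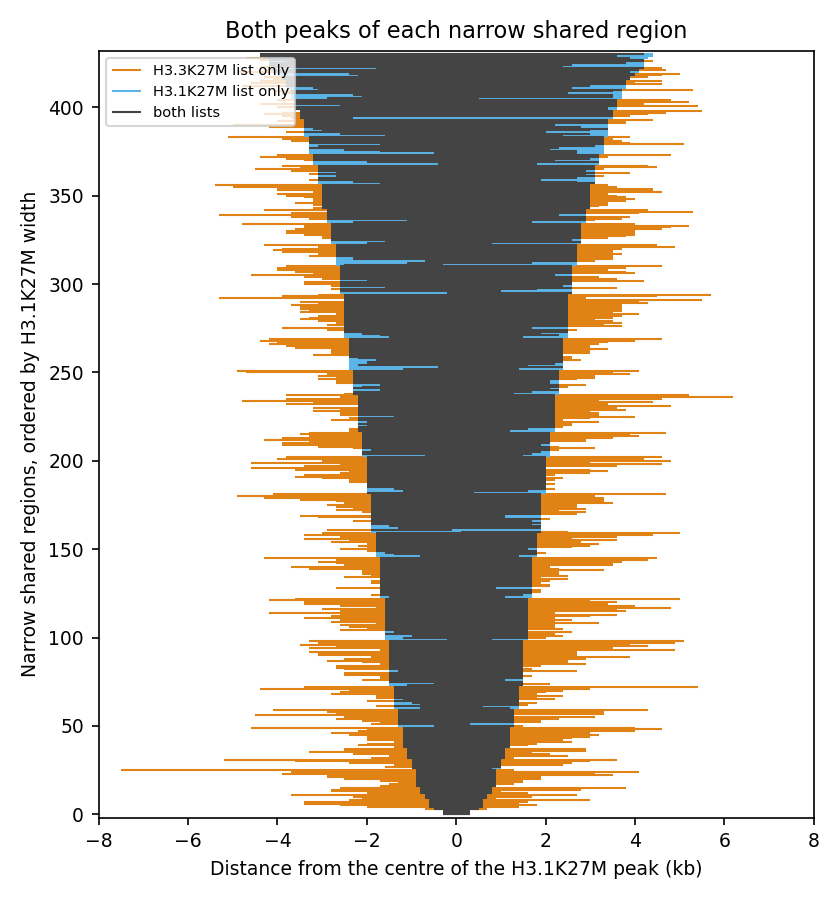
Both peaks of each of the 431 narrow shared regions, one region per row in order of H3.1K27M width, drawn as distance (kb) from the centre of the H3.1K27M peak. Dark lines are length called in both lists, orange is length in the H3.3K27M list alone and light blue is length in the H3.1K27M list alone. Orange borders both sides in the 251 regions where the H3.3K27M peak passed both edges.

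The counts were similar at both edges of the narrow regions. The left edge lay further out in H3.3K27M cells in 309 regions (71.7%), was equal in 46 and lay further out in H3.1K27M cells in 76. On the right the counts were 307 (71.2%), 42 and 82. The median extension was 0.6 kb at each edge, which is 3 steps of the 200 bp grid on which peaks were placed. Quartiles were 0 and 1.2 kb on the left and 0 and 1.4 kb on the right. Most edges were thus displaced by a few steps: an H3.3K27M extension over 2 kb occurred at 28 left and 42 right edges, and an H3.1K27M extension over 2 kb at 4 left and 3 right edges. In the broad regions the median extension was 1.2 kb on the left and 1.4 kb on the right, and 132 left and 130 right edges had an H3.3K27M extension over 2 kb. Narrow regions have less room for such extensions, so part of this contrast is built in by the span limit.

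**Figure D3:**
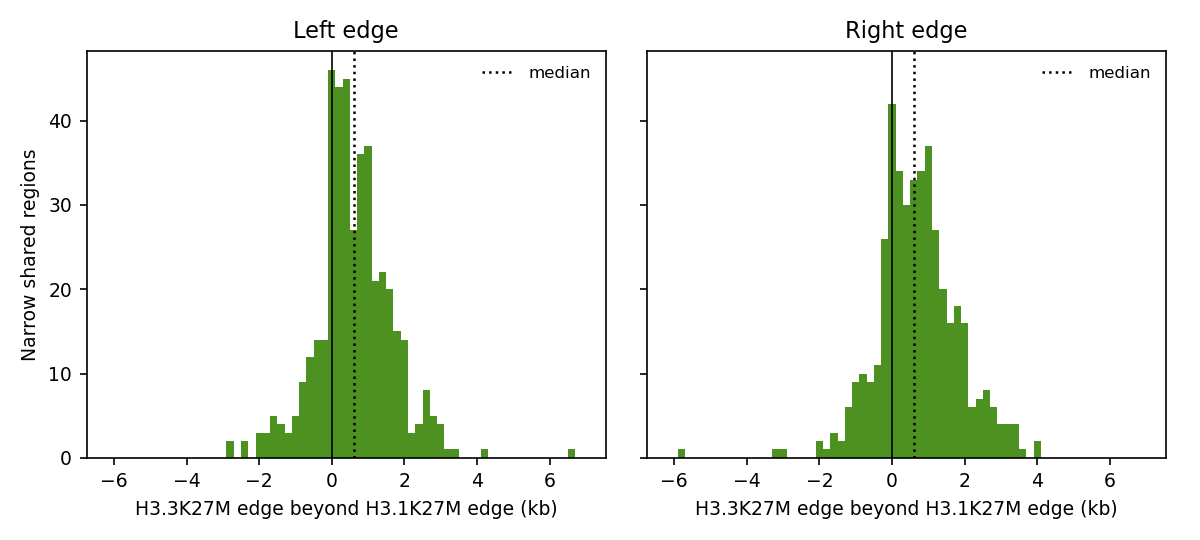
Distance (kb) by which the H3.3K27M edge lay beyond the H3.1K27M edge at the left and the right end of the 431 narrow shared regions, in bins of one 200 bp step. Positive values mean that the mark reached further in H3.3K27M cells. Both distributions have a median of 0.6 kb (dotted line).

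The centres of the peaks lay close together. The peaks had to overlap within a span under 9 kb, so part of this closeness is built in by the choice of regions. The median distance between centres was 0.3 kb, with quartiles of 0.2 and 0.6 kb and a maximum of 3.1 kb. Centres lay within 500 bp of each other in 305 regions (70.8%) and more than 1 kb apart in 33 (7.66%). Set against the span of the region, the median distance was 5.56% in narrow regions and 4.74% in broad ones. The length in common was 71.0% of the combined length at the median narrow region and 74.4% at the median broad region. The overlap was at least 50% of both peaks in 356 narrow regions (82.6%, interval 78.7 to 86.1%) and in 350 broad ones (87.5%, 83.9 to 90.6%). Overlap and span entered the choice, so nothing is read from the difference between these shares.

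A small group of narrow regions had exactly the same extent in both mutants. There were 9 of them, against 1 broad region. They included the 3 narrowest regions, each of 599 bp: chr6:49186201-49186799, chr7:137977801-137978399 and chr11:89092401-89092999. No peak of either list in the narrow regions was shorter than 599 bp, so equal extents are built in at that span. The others were longer: chr2:133377001-133380799 (3.8 kb), chr4:133924401-133928399 and chr4:136192401-136196399 (4.0 kb each), chr7:53433401-53436799 (3.4 kb), chr8:13433801-13438799 (5.0 kb) and chr8:126124201-126127199 (3.0 kb). Agreement to within 1 step of 200 bp at both edges was found in 41 narrow regions (9.51%, interval 6.91 to 12.7%) and in 8 broad ones (2.0%, 0.867 to 3.90%). A fixed step is a larger part of a narrow region, so these shares are not measures of the same relative closeness.

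In the narrowest regions after those of 599 bp, the widths of the mutants were at most 1.0 kb apart, with ratios of the wider to the narrower peak up to 1.56. The span contains both peaks, so picking the smallest spans bounds the difference and builds in part of this closeness. At chr6:85077601-85078999 the widths were 1.0 kb with H3.1K27M and 1.4 kb with H3.3K27M. At chr4:62243801-62245799 they were 2.0 and 1.8 kb, and at chrX:5623401-5625999 they were 2.4 and 2.6 kb. The H3.3K27M peak was longer by 0.6 kb at chr1:127807201-127809799 (2.0 and 2.6 kb), by 0.8 kb at chr7:120908401-120910999 (1.8 and 2.6 kb) and by 1.0 kb at chr2:119583201-119585999 (1.8 and 2.8 kb). The last of the 10 narrowest, chr4:150513001-150515799, was longer in H3.1K27M cells, 2.6 against 2.0 kb, and lay 2.6 kb from a broad region.

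Short peaks of both mutants often had no partner, and the shorter they were the less often they had one. The H3.1K27M list held 760 peaks under 9 kb: 431 made up the narrow regions, 139 lay in broad regions and 190 had no partner. The H3.3K27M list held 779 such peaks, of which 431 made up the narrow regions, 39 lay in broad regions and 309 had no partner. Among H3.1K27M peaks the share with a partner was 54.5% below 3 kb, 77.7% from 3 to 5 kb, 83.6% from 5 to 7 kb and 92.2% from 7 to 9 kb. Among H3.3K27M peaks it was 37.1%, 52.4%, 66.9% and 75.5% in the same classes, and 89.1% at 9 kb and above. A longer peak meets another by overlap more readily, and how much of the trend this makes was not tested. The narrow regions therefore hold 56.7% of the short H3.1K27M peaks and 55.3% of the short H3.3K27M peaks.

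Narrow regions were spread over all 20 chromosomes that carried peaks, at uneven density. Over the whole assembly there were 0.163 narrow regions per Mb (95% Poisson interval 0.148 to 0.179). Chromosome 11 had 0.312 per Mb (0.221 to 0.428), from 38 regions, and chromosome 19 had 0.245 (0.137 to 0.403), from 15. The sparsest were the X chromosome with 0.030 (0.00974 to 0.070), from 5 regions, chromosome 16 with 0.0509 (0.0165 to 0.119) and chromosome 3 with 0.0752 (0.0389 to 0.131). These intervals cover counting error and take regions as independent, which crowded regions are not. Broad regions were dense on chromosomes 11 (0.295 per Mb) and 19 (0.375) as well, against 0.152 over the assembly. They were also sparse on the X chromosome (0.060), chromosome 16 (0.0814) and chromosome 3 (0.0689).

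Every chromosome with peaks carried both narrow and broad regions. Narrow regions made up 51.9% of shared regions overall. The share was highest on chromosome 7, with 32 of 45 (71.1%, exact interval 55.7 to 83.6%), and on chromosome 12, with 20 of 29 (69.0%, 49.2 to 84.7%). It was lowest on the X chromosome, with 5 of 15 (33.3%, 11.8 to 61.6%), chromosome 16, with 5 of 13, and chromosome 19, with 15 of 38 (39.5%, 24.0 to 56.6%). Of these intervals, only that of chromosome 7 leaves out the overall share, and it was picked as the highest of 20 chromosomes. The median log2 width ratio of narrow regions was above 0 on all 20 chromosomes, from 0.13 on chromosome 15 (22 regions) to 0.60 on chromosome 10 (11 regions). No narrow region of chromosome 3 (12 regions) or of the X chromosome (5 regions) had the wider peak in H3.1K27M cells.

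**Figure D4:**
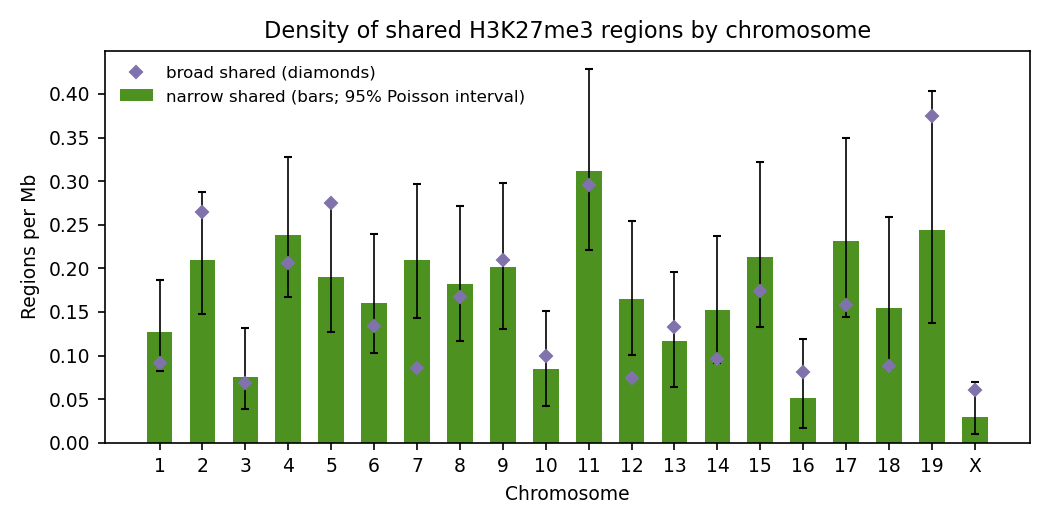
Shared H3K27me3 regions per Mb of mm9 on each chromosome, with narrow regions as bars (lines are 95% Poisson intervals, counting error only) and broad regions as diamonds. Chromosome 11 has the highest bar, 0.312 per Mb, and the X chromosome the lowest, 0.030 per Mb. On chromosome 7 the diamond lies well below the bar, with 13 broad against 32 narrow regions.

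Most narrow regions had no other region close by. The median distance to the nearest other region of either list was 286.2 kb, against 133.0 kb for broad regions. Another region lay within 50 kb of 83 narrow regions (19.3%, interval 15.6 to 23.3%) and of 131 broad regions (32.8%, 28.2 to 37.6%). A region within 10 kb was found for 22 narrow (5.10%, 3.23 to 7.63%) and 53 broad regions (13.2%, 10.1 to 17.0%). At the other end, 81 narrow regions (18.8%) and 65 broad regions (16.2%) had no other region within 1 Mb. The shares of narrow and broad regions thus lay further apart for close neighbours than for isolated regions. Distance was not used to choose the regions, but span was, with medians of 6.2 kb in narrow and 14.6 kb in broad regions. Gaps run between edges, so a longer span shortens the gap for the same spacing of centres. Regions of the same 2 lists are not replicates, and no test was made.

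**Figure D5:**
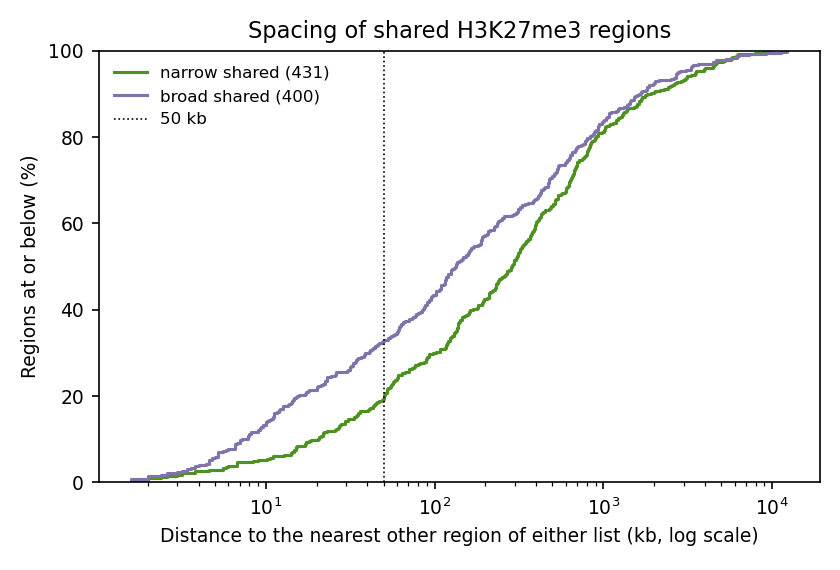
Share of regions (%) whose nearest other region of either list lies at or below the distance on the x axis (kb, log scale), for 431 narrow and 400 broad shared regions. At 50 kb (dotted line) the curves stand at 19.3% for narrow and 32.8% for broad regions, and they come together beyond 1 Mb.

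Close neighbours of narrow regions were of every kind. Within 50 kb there was a broad shared region for 35 narrow regions (8.12%), another narrow one for 31 (7.19%), a peak of the H3.1K27M list alone for 15 (3.48%) and a peak of the H3.3K27M list alone for 13 (3.02%). For broad regions the shares with a close peak of a single list were 7.5% for H3.1K27M and 9.5% for H3.3K27M. In the order along the chromosomes, the next region on either side of a narrow region was narrow in 300 of 848 cases (35.4%) and broad in 236 (27.8%). Narrow regions were 31.2% and broad regions 28.9% of all regions. A peak of the H3.1K27M list alone was next in 14.3% of cases, and such peaks were 14.3% of all regions (198). For peaks of the H3.3K27M list alone these shares were 22.5% and 25.6% (354).

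Some narrow regions lay directly beside a broad one. At chr5:140131801-140139199 (6.6 kb with H3.1K27M, 7.4 kb with H3.3K27M) the gap was 1.6 kb, and at chr1:74978201-74985599 (2.8 and 7.4 kb) it was 2.0 kb. Gaps of 3.0 and 4.6 kb separated chr11:98207001-98215399 (8.4 and 8.0 kb) and chr5:120857801-120862599 (3.8 and 2.8 kb) from broad regions. With the region on chromosome 4 named above, these were the 5 nearest to a broad region, and 3 of them were wider in H3.1K27M cells. Among all 431 narrow regions 83 (19.3%) were wider in H3.1K27M cells, and nothing is read from 5 picked regions.

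The most isolated narrow regions lay several Mb from any other. At chr3:68671401-68676799 the H3.1K27M peak measured 2.2 kb and the H3.3K27M peak 5.4 kb, and the nearest region was 9857 kb away. At chr13:3356001-3360399 (3.4 and 4.4 kb) the distance was 8834 kb, and at chr18:15307201-15314199 (3.0 and 7.0 kb) it was 7882 kb. Next were chr10:28861801-28869399 (5.4 and 7.6 kb, 6292 kb away) and chr8:3586401-3589599 (2.8 and 2.4 kb, 6180 kb away). In all, 11 narrow regions had no other region within 5 Mb.

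Stretches with 3 or more narrow regions were few. When separate stretches of up to 500 kb were drawn around as many narrow regions as possible, 1 stretch held 4 of them and 9 held 3. A further 58 stretches held 2, and 282 held 1. No such count is given for broad regions. The stretch with 4 ran along chromosome 6 from 91753601 to 92198199 and held no other region. In it the H3.1K27M and H3.3K27M widths were 4.0 and 6.6 kb, then 7.2 and 8.8 kb, then 4.4 and 6.8 kb, and last 5.2 and 3.6 kb. The fourth region was wider in H3.1K27M cells, as were 83 of all 431 narrow regions (19.3%).

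Among the stretches with 3 narrow regions, the one at chr7:53433401-53654799 had no region that was wider in H3.3K27M cells. Its widths were 3.4 kb in both mutants, 5.2 and 2.8 kb, and 5.2 kb in both. Close by, at chr7:51590201-51738999, H3.1K27M and H3.3K27M widths were 4.8 and 2.6 kb, 5.6 and 5.4 kb, and 7.4 and 8.4 kb, beside 2 broad regions. On chromosome 4 from 147501801 to 147781799 2 of 3 regions were wider with H3.3K27M, at 4.0 and 7.8 kb, 4.8 and 6.8 kb, and 6.6 and 6.2 kb. At chr2:180505801-180950199 2 of 3 were too, at 7.6 and 8.6 kb, 4.6 and 4.0 kb, and 3.4 and 4.4 kb, among 2 broad regions and 2 peaks of the H3.1K27M list alone. Over all 10 stretches with 3 or 4 narrow regions, both directions occurred in 6, every region was wider in H3.3K27M cells in 3, and every region was wider in H3.1K27M cells in 0. The stretch at chr7:53433401-53654799, with 1 region wider in H3.1K27M cells and 2 equal, fell in none of these. Among all 431 narrow regions 75.9% were wider in H3.3K27M cells and 19.3% in H3.1K27M cells. Whether the mix within stretches differs from these shares was not tested.

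The peak lists give extent and not amount. The lists carry no height, enrichment or p-value, and a deeper library or a looser threshold can give wider peaks. Neither the depth nor the threshold of either list is given in the sources used here, and their part in the wider H3.3K27M peaks of narrow regions was not tested.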

How the data were processed

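Of 13 samples in 11 groups, the H3K27me3 samples of H3.1K27M and H3.3K27M cells entered, as 1 deposited peak list each. Per the submitters' processing notes, Bowtie 1.0.0 and deepTools were run and the build is mm9. The authors' peak caller, its threshold and any pooling of replicates are, in the sources used here, not given. Per the deposited files, each peak has a chromosome, start, end and width in bp, with starts on a 200 bp grid. Starts were taken as 0-based, as in BED, and are printed 1-based. Distances are gaps between region edges.

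The regions and measures were chosen with earlier results of these data known. Regions were named by these rules: the 10 smallest spans, the 5 on each side of the limit, the 5 highest and 5 lowest width ratios, all with equal ends, the 5 farthest from any region, the 5 nearest to a broad region, and, for runs of narrow regions within 500 kb, the 5 holding most, with ties taken by chromosome and start. Shares carry exact Clopper-Pearson intervals and densities Poisson intervals, which cover counting error only and take regions as independent. No test was made. The gene and promoter tables used here describe GRCm38, a later build, so no gene or sequence was assigned. Python 3.11.15, numpy 2.4.6, pandas 2.3.3, scipy 1.17.1 and matplotlib 3.10.9 were used, with mm9 lengths from GenomeInfoDb 1.38.1 in R 4.3.3. The joining of peaks was checked on made-up peaks of known layout.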

Additional observations from a re-analysis of the deposited data

How the results depend on the processing

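No paired analysis was possible because 1 list stands for the 2 replicates of each mutant, which also means that leaving out a replicate was not possible. The 7 other settings were planned for 6 values of the narrow regions. Keeping only regions with 1 peak of each list could change nothing, since all 431 hold 1 of each. Under the other 6 settings no direction reversed, and 29 of 36 values stayed within 1.5 times the count or within the 95% binomial interval of the value as reported. With a reciprocal overlap of 50% required, 356 narrow regions were left, the median H3.1K27M width was 4.6 kb and the median log2 width ratio was 0.29. With a span limit of 7 kb the median widths were 3.8 kb with H3.1K27M and 4.8 kb with H3.3K27M, and 71.0% of 297 regions had the wider H3.3K27M peak. With a span limit of 11 kb the median widths were 4.8 and 6.4 kb over 530 regions. These shifts follow from the construction of the settings, since the limit bounds the widths and the reciprocal rule drops unequal pairs. Merging peaks under 5 kb apart, limiting each peak to 9 kb and leaving out the X chromosome moved none of the values beyond those bounds. Comparisons with start sites and base composition were not run, since the reference tables used here are of another build. Depth is unknown and limits each statement on the extent of a peak.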
